A study of Mus musculus with 12 samples.

Results

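RNA from the stromal vascular fraction (SVF) of mouse fat was compared between 3 libraries that carried an active Tert under the p21 promoter and 3 that carried mCherry there, both on a high-fat diet (HFD). These 6 libraries are part of a set of 12, and all 24422 features of the count tables were considered. The stromal vascular fraction is what remains of fat tissue once the buoyant mature adipocytes are taken off: progenitors, endothelial and mural cells, macrophages and other leukocytes. The labels call the material primary stromal cells of adipose tissue. The control group, HFD mCherry (replicates 15, 17 and 20), has the genotype p21+/mcherry, and the Tert group, HFD Tert (replicates 25, 26 and 27), has p21+/mcherry-Tert. Both groups therefore carry 1 altered p21 allele, so a fully wild-type animal is not part of the comparison. The series' design text writes the high-fat diet control as p21+/-. The other 6 libraries are HFD TertCi (replicates 30, 31 and 33), with TertCi at the same locus on the same diet, and SD mCherry (replicates 1, 2 and 3), p21+/mcherry on a standard diet. Sex, age, fat depot, batch and the number of animals behind a library are not stated, so the p-values below measure the spread between these libraries only.

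Tert encodes the catalytic protein of telomerase, which adds telomeric repeats to chromosome ends and is low in most adult tissues. The p21 gene, Cdkn1a, encodes an inhibitor of cyclin-dependent kinases that p53 switches on when DNA or telomeres are damaged and that marks many senescent cells. In obese fat, macrophages accumulate, take up lipid and build lysosomes, while progenitors deposit collagen. The comparison asks how RNA levels in this fraction differ when an active telomerase protein is made wherever the p21 promoter is active.

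The sequences below are the 250 bases before each annotated start of Cdkn1a, the locus that drives the transgene, and before the start of Tert itself. They are shown because the knock-in puts Tert under the p21 promoter in place of its own. They were taken from RefSeq, build GRCm38.p6, and run 5′ to 3′ on the gene's strand. Capitals mark 3 motifs searched on both strands: CATGNNNNNNCATG (2 p53 half-site cores), GGGCGG (a GC box) and TATAA. No 2 matches overlapped.
Cdkn1a upstream start, chr17:29090729-29090978, + strand: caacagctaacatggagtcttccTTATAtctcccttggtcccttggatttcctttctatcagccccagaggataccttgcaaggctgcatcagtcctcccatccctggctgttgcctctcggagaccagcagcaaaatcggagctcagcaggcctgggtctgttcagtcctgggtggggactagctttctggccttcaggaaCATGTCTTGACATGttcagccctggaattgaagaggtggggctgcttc
Cdkn1a downstream start, chr17:29093519-29093768, + strand: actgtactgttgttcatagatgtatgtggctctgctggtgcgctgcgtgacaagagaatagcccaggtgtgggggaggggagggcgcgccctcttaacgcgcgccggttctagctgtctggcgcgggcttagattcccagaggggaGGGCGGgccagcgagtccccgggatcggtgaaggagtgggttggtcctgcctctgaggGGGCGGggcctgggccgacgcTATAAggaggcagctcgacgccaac
Tert, chr13:73626661-73626910, + strand: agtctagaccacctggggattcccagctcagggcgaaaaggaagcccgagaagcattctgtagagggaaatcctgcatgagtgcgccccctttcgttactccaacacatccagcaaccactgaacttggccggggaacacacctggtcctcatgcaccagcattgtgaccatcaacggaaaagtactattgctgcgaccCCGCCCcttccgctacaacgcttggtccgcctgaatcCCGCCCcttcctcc
The Cdkn1a starts lie 2790 bases apart. The window of the upstream start held 1 match to the p53 core pattern, which occurred in 0.49% of 32851 promoter windows of the same length, and 1 TATAA on the opposite strand. The window of the downstream start held 2 GC boxes and 1 TATAA. The Tert window held 2 GC boxes, both read as CCGCCC. GC boxes occurred in 32.7% and TATAA in 22.8% of all windows.

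The knock-in showed in every library as labelled. Tert stood at 1.66, 1.02 and 1.61 CPM (counts scaled to a common library size, with TMM factors) in HFD mCherry replicates 15, 17 and 20, and at 8.99, 6.99 and 16.6 CPM in HFD Tert replicates 25, 26 and 27. The groups did not overlap, and the log2 fold change was 2.92 (SE 0.66). The added feature mCherry_Tert, whose sequence the files do not describe, had 0 counts in each control library and 33, 37 and 48 counts (1.93, 1.98 and 2.82 CPM) in the Tert libraries. Set against a floor of 3 counts per control library, the lowest Tert library was at least 11-fold higher. Cdkn1a itself read 226, 425 and 367 CPM in the control libraries and 237, 267 and 433 CPM in the Tert libraries. Its groups overlapped, and its log2 fold change of -0.12 (SE 0.37) ranged from -0.43 to 0.07 when single libraries were left out.

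The 6 libraries held 16430330 to 19486965 counts, and 16231 to 19046 features had at least 1 count. Libraries within a group differed widely in tissue make-up. Markers of epididymis and other epithelium (14 genes, 12 tested) summed to 18475, 780 and 115 CPM in HFD mCherry replicates 15, 17 and 20 and to 10453, 4789 and 24.6 CPM in HFD Tert replicates 25, 26 and 27. Replicate 15 of the controls and replicates 25 and 26 of the Tert group are therefore called epithelium-rich below, and the other 3 epithelium-poor. Lcn5, an epididymal lipocalin, stood at 3638 CPM in replicate 15 and at 0 to 4.49 CPM in the other 5 libraries. Adam7 of the same list stood at 4412 CPM in replicate 15 and at 5.02 and 2.88 CPM in HFD Tert replicates 25 and 26. Krt7 lay the other way, at 25.8 CPM against 251 and 256 CPM. The epithelium-rich libraries are therefore not matched in their epithelial genes, and a single mean over the list does not capture this. Skeletal muscle genes were also highest in HFD Tert replicates 25 and 26, with sums of 846 and 1123 CPM against 7.2 to 108 CPM elsewhere. Results are given with single libraries left out, with the mean log2 level of the epithelial list as a covariate, and within the rich (2 Tert, 1 mCherry) and poor (1 Tert, 2 mCherry) libraries, which give values with no test. What part tissue make-up has in the differences below was not tested. In bulk RNA, fewer cells of a type and less RNA per cell cannot be told apart.

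**Figure D1:**
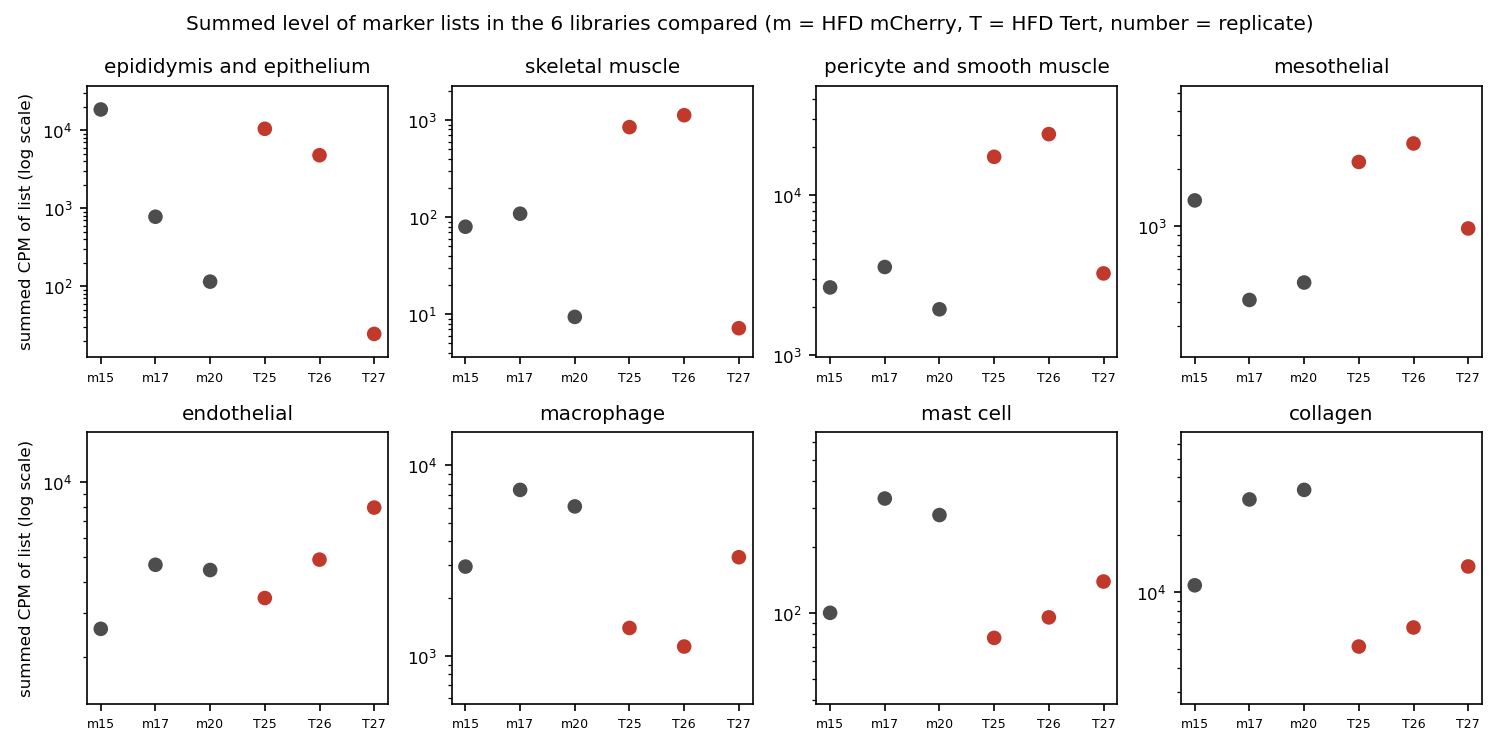
Summed CPM (log scale, a separate range in each panel) of 8 marker lists in each of the 6 libraries, with HFD mCherry in grey and HFD Tert in red. Epithelial sums ran from 24.6 to 18475 CPM and split both groups, while macrophage sums of HFD Tert replicates 25 and 26 lay below those of every control.

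Across all 16713 genes tested, edgeR's quasi-likelihood test called 0 genes at an adjusted p under 0.05 (0% of those tested), and the smallest adjusted p was 0.0554. At an unadjusted p under 0.05 it counted 2735 genes (16.4%), of which 1629 (9.75% of genes tested) were lower and 1106 (6.62%) higher in HFD Tert. DESeq2, run on the same counts, called 847 genes (5.07%), 530 lower (3.17%) and 317 higher (1.9%), and limma-voom called 0, with 2253 at an unadjusted p under 0.05. With the epithelial covariate edgeR called 996 genes (5.96%), 723 lower (4.33%) and 273 higher (1.63%). DESeq2 and the covariate fit shared 475 genes, all 475 in the same direction. Levels in the 2 groups did not overlap for 3532 genes (21.1%), 1863 lower (11.1%) and 1669 higher (9.99%). Over all genes the median log2 fold change was -0.05 and 8998 (53.8%) were below 0. Scaling by library size alone moved that median to 0.03 and the share of lower genes among those at an unadjusted p under 0.05 from 59.6% to 45.0%. In simulated counts, 66 of 200 genes (33%) changed by a log2 of 2 were recovered, and 179 of 200 (89.5%) changed by 4. Whether these rates hold for libraries that differ in tissue make-up as these do was not tested. They therefore do not say how many real changes this comparison could detect. Since edgeR made no call, all differences named below are described as values. Of 124 genes given with values in the text, DESeq2 called 86 and the covariate fit 76, and most of these calls are not repeated beside the gene. Most of these genes were chosen from the same counts by small p or large change, so the calls are no independent support.

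**Figure D2:**
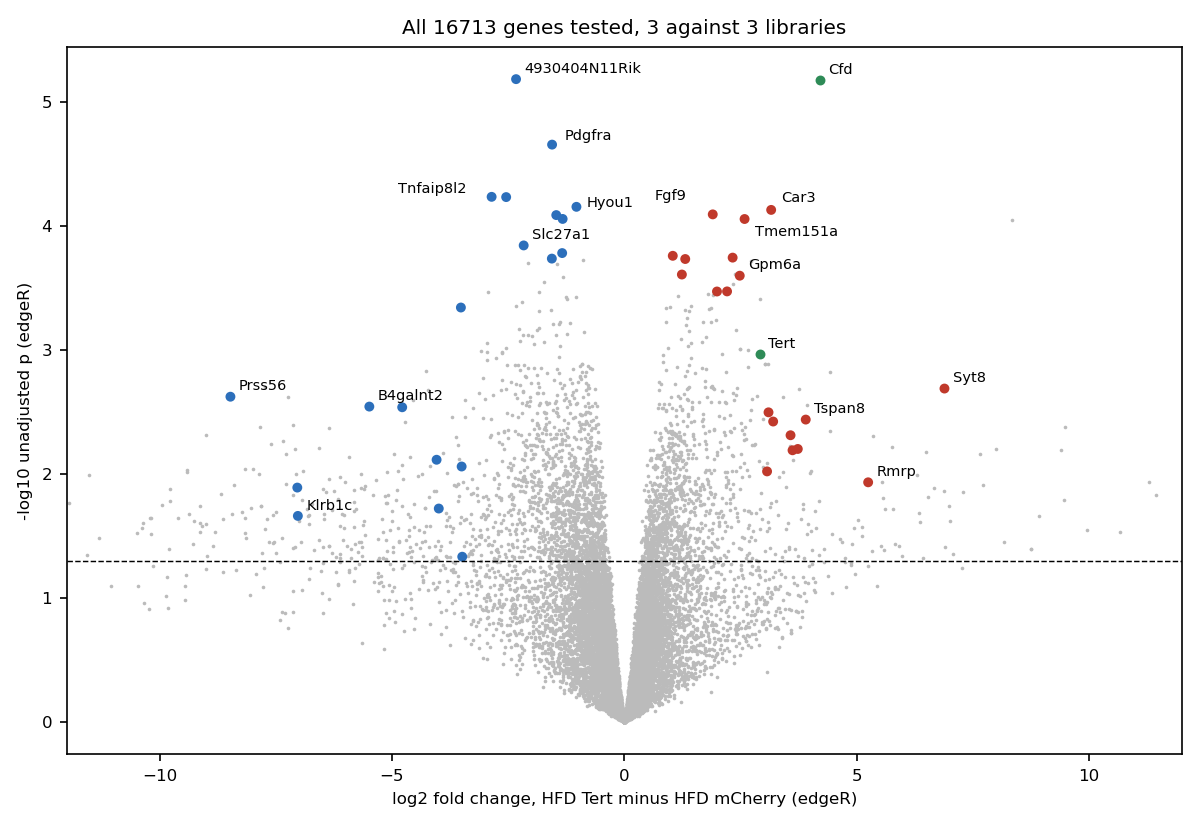
Each of 16713 genes by log2 fold change (HFD Tert minus HFD mCherry) and the size of its unadjusted edgeR significance, with the dashed line at the threshold of 0.05. Blue marks the lower and red the higher genes named by size of change or smallest p, and green marks Cfd and Tert. The genes with the smallest p, 4930404N11Rik and Cfd, had log2 fold changes of -2.33 and 4.21, well inside the largest ones.

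The genes whose lower level in HFD Tert was most regular between libraries included a growth factor receptor of progenitors, transporters, lysosomal enzymes and a chaperone. 4930404N11Rik (chr10:81363067-81365816, GRCm38, minus strand), a gene of unknown function, had the smallest p: 36.2, 58.3 and 59.7 CPM in the controls against 10.4, 8.7 and 11.6 CPM. Its log2 fold change was -2.33 (SE 0.29, edgeR adjusted p = 0.0554). Its exons overlap those of Mfsd12, a gene of the opposite strand that encodes a lysosomal cysteine transporter. The files do not say whether strand was used in counting, so reads of the pair cannot be told apart, and the log2 fold change of -2.54 (SE 0.40) for Mfsd12 is not an independent one.

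Pdgfra (chr5:75152292-75198215), the PDGF receptor that marks adipose progenitors and fibroblasts, stood at 198, 232 and 232 CPM in HFD mCherry and at 74.3, 61.3 and 89.6 CPM in HFD Tert. Its groups lay far apart, with a 2.94-fold lower mean and a log2 fold change of -1.55 (SE 0.22) that stayed between -1.70 and -1.43 when single libraries were left out. A microRNA gene, Mir7025, overlaps its exons. Slc27a1 (chr8:71568882-71587302), a fatty acid transport protein of the plasma membrane, was nearly constant within each group, at 108, 89 and 110 CPM against 23.8, 21.5 and 23.1 CPM. Its log2 fold change was -2.17 (SE 0.38). Slc7a8, an exchanger of neutral amino acids, stood at 88.5, 108 and 97.7 CPM against 35.2, 24.7 and 46.5 CPM, a log2 fold change of -1.46 (SE 0.24). Hyou1, a chaperone of the endoplasmic reticulum, showed a smaller but even difference, 377, 298 and 348 CPM against 180, 161 and 159 CPM, with a log2 fold change of -1.03 (SE 0.17).

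Tnfaip8l2, which encodes an inhibitor of immune receptor signalling in leukocytes, was at 5.91, 15 and 16.1 CPM in the controls and at 1.52, 1.71 and 1.88 CPM in the Tert libraries, a log2 fold change of -2.85 (SE 0.45). Control replicate 15 was the lowest of its group and still above every Tert library. The lysosomal genes Naglu, which degrades heparan sulphate, and Ifi30, a thiol reductase of antigen processing, had log2 fold changes of -1.33 (SE 0.22) and -1.56 (SE 0.28). Gpc1, a cell-surface heparan sulphate proteoglycan, had one of -1.34 (SE 0.24). None of these 10 genes had an edgeR adjusted p under 0.05 (range 0.0554 to 0.147), and all 10 were called by DESeq2 and with the epithelial covariate. They were chosen by small edgeR p and no overlap in the same counts, so these calls are no independent support.

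Genes higher in HFD Tert with the smallest p were led by an adipocyte enzyme and a growth factor. Car3 (chr3:14863512-14872523), carbonic anhydrase of adipocytes and muscle, stood at 4.36, 6.07 and 4.42 CPM in the controls and at 45.8, 65.6 and 21.6 CPM in HFD Tert. The lowest Tert library was well above the highest control, and the log2 fold change was 3.16 (SE 0.51). Fgf9 (chr14:58070547-58112720), a secreted fibroblast growth factor, was tight in both groups, at 4.2, 4.57 and 4.48 CPM against 13.9, 20.8 and 14.9 CPM, a log2 fold change of 1.90 (SE 0.31). Gpm6a, a membrane glycoprotein of neurons and mesothelium, stood at 21.1, 48.5 and 38.7 CPM against 142, 259 and 204 CPM. Its log2 fold change of 2.48 (SE 0.46) ranged from 2.21 to 2.75 with single libraries left out. Suclg2, a subunit of the succinyl-CoA ligase of the citric acid cycle, and Rab27a, a GTPase of vesicle secretion, had smaller log2 fold changes of 1.04 (SE 0.19) and 1.31 (SE 0.24). Pttg1, which encodes securin, an inhibitor of sister chromatid separation until anaphase, had one of 1.24 (SE 0.23). Tmem151a, AU021092 and Moxd1, a monooxygenase-like protein, had log2 fold changes of 2.59, 2.21 and 1.99. These 9 genes had edgeR adjusted p between 0.125 and 0.157, and each was called by DESeq2 and with the covariate. They were chosen in the same way as the lower genes, so these calls are no independent support either.

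Cfd (chr10:79890853-79892655), adipsin, the complement protease secreted by adipocytes, had the smallest p of all the higher genes. It was below the mean of 5 CPM set for the genes above and is named from the adipocyte list. Its level was 0.387, 0.421 and 0.418 CPM in HFD mCherry and 5.72, 13.2 and 4 CPM in HFD Tert. The mean was 18.7-fold higher, and the log2 fold change was 4.21 (SE 0.52, edgeR adjusted p = 0.0554). It was the gene that edgeR called when HFD Tert replicate 27 was left out.

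**Figure D3:**
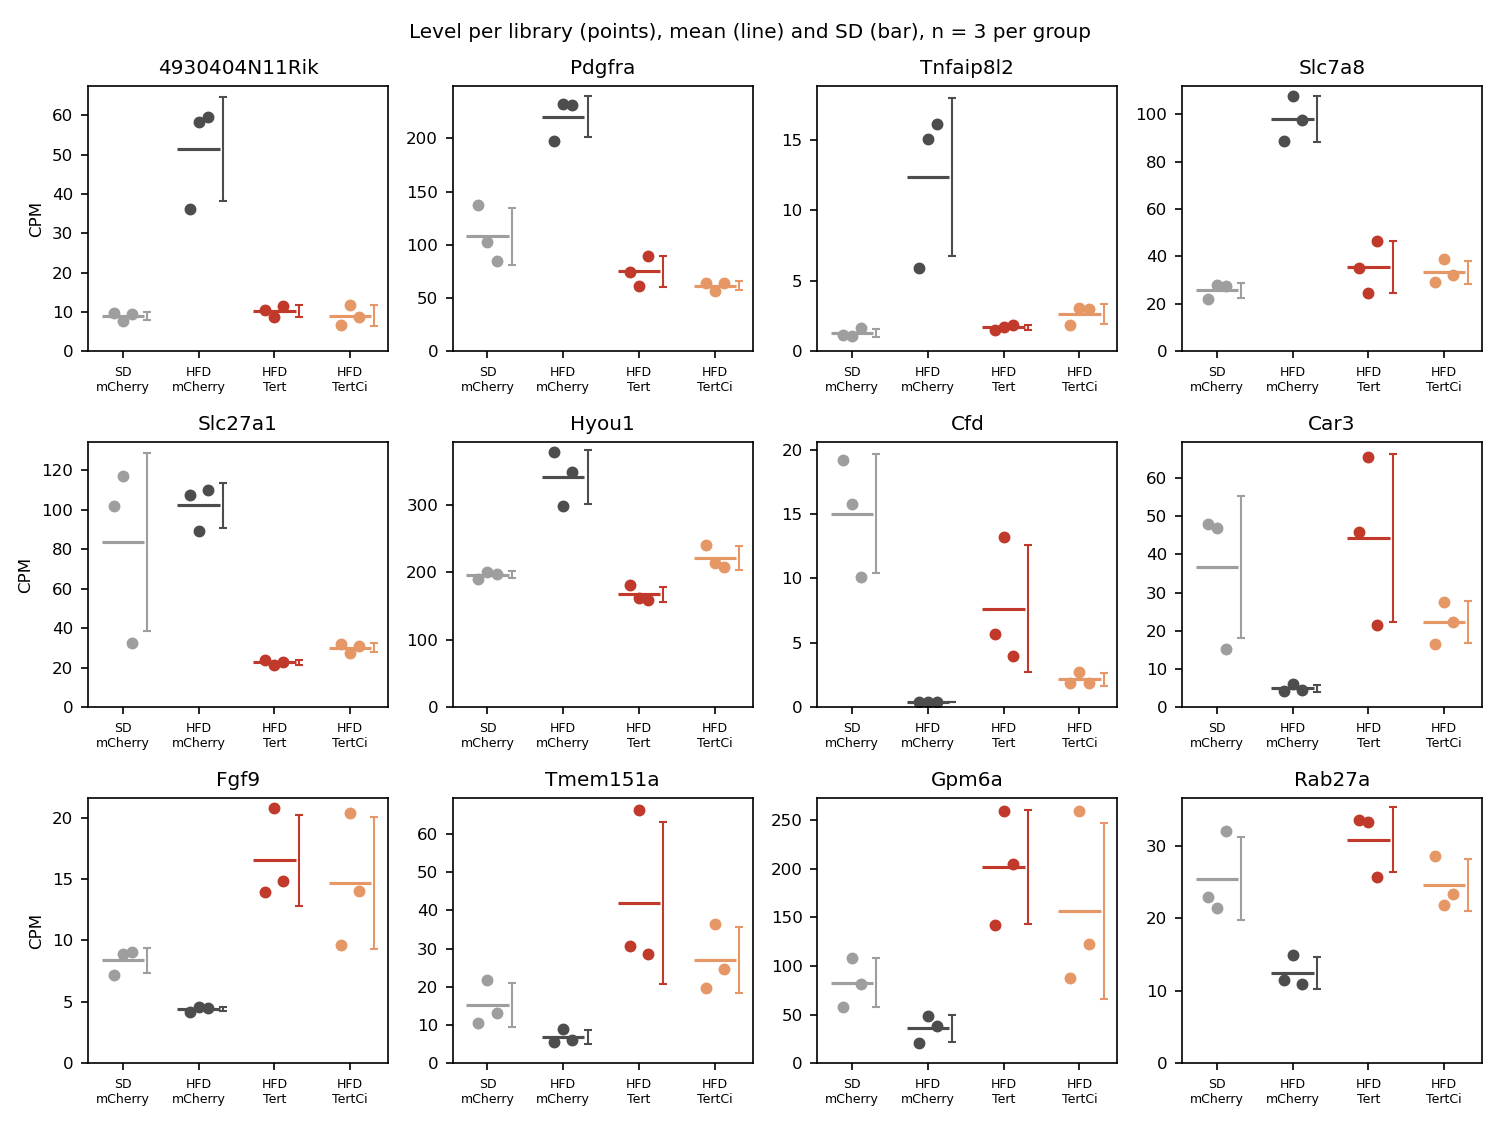
CPM of 12 genes in each library (points) with the mean (line) and SD (bar) of 3 libraries, for all 4 groups. In each panel the HFD mCherry and HFD Tert points do not overlap: 6 genes were lower and 6 higher in HFD Tert.

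The largest fold changes were less regular, and many rested on 1 library. Among genes with no overlap between groups and a mean of at least 5 CPM over the 6 libraries, Prss56, a serine protease, had the lowest log2 fold change, -8.47 (SE 2.13). It stood at 26.9, 0.12 and 20.9 CPM in the controls, so that replicate 17 was close to the Tert libraries at 0.0584, 0 and 0.0588 CPM. Klrb1c, the natural killer receptor NK1.1, was at 174 CPM in control replicate 15, 1.14 and 1.01 CPM in replicates 17 and 20, and at most 0.823 CPM in HFD Tert. Without replicate 15 its log2 fold change of -7.02 shrank to -1.26. The same library held most of the control signal of Ano3 (140 CPM), Lingo1 (122 CPM) and Col6a4 (86 CPM), where the other controls were at most 6.73 CPM. Without it, their log2 fold changes of -7.04, -4.78 and -3.99 became -1.96, -1.82 and -0.69. Exons of Ano3 overlap those of Muc15. B4galnt2, a glycosyltransferase, and Foxj1, the regulator of motile cilia, were also highest in replicate 15, at 50.7 and 31.2 CPM. Without it the log2 fold change of B4galnt2 went from -5.49 to -2.88.

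A macrophage-linked gene stood in the same group. Atp6v0d2, a subunit of the vacuolar proton pump found in osteoclasts and lipid-laden macrophages, was at 76.2, 149 and 171 CPM in the controls and at 1.11, 0.107 and 34.1 CPM in HFD Tert. HFD Tert replicate 27 was far from its group, and the log2 fold change of -3.49 (SE 1.54) became -7.77 without it. Mir7062 (4.58, 16.4 and 19.9 CPM against 0.759, 0.854 and 1.94 CPM) lies inside the gene Adam8 on the same strand, so its reads may be those of the host. The uncharacterised 4932438H23Rik had a log2 fold change of -3.50 (SE 1.09), or -1.59 without control replicate 15.

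Among the largest higher values, Syt8, a synaptotagmin, was at 28.1 and 22.2 CPM in HFD Tert replicates 25 and 26 but at 0.588 CPM in replicate 27, against at most 0.24 CPM in the controls (log2 fold change 6.89, SE 1.70). Tspan8, an epithelial tetraspanin, Ckmt1, a mitochondrial creatine kinase, Pcsk1n, a convertase inhibitor, and Upk1b, a plaque protein of urothelium and mesothelium, also had replicate 27 as the lowest Tert library. Upk1b stood at 37, 13.9 and 11.8 CPM against 217, 261 and 49.2 CPM. Aqp2, the water channel of the collecting duct, and Ptprr, a tyrosine phosphatase, had log2 fold changes of 3.58 (SE 1.01) and 3.10 (SE 0.82), and that of Aqp2 was 2.29 without Tert replicate 25. Rmrp and Rpph1, the RNA parts of RNase MRP and RNase P, were at 36.5 and 46.2 CPM in Tert replicate 25 and at most 7.46 CPM in the other 5 libraries compared. Without replicate 25 their log2 fold changes of 5.25 and 3.73 became 1.51 and 2.08. Exons of Rmrp overlap those of Ccdc107, and exons of Rpph1 those of Ccnb1ip1. The RNA was selected with poly-T beads, and whether reads of Rmrp and Rpph1 reflect their levels in the cells was not tested. Of the 20 genes chosen by size of change, 14 were called by DESeq2 and 4 with the covariate.

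Genes were next read in lists by cell type and role. Each list is described by its counts and median beside those of all genes tested (9.75% lower and 6.62% higher at an unadjusted p under 0.05, 11.1% lower and 9.99% higher with no overlap, median -0.05).

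**Figure D4:**
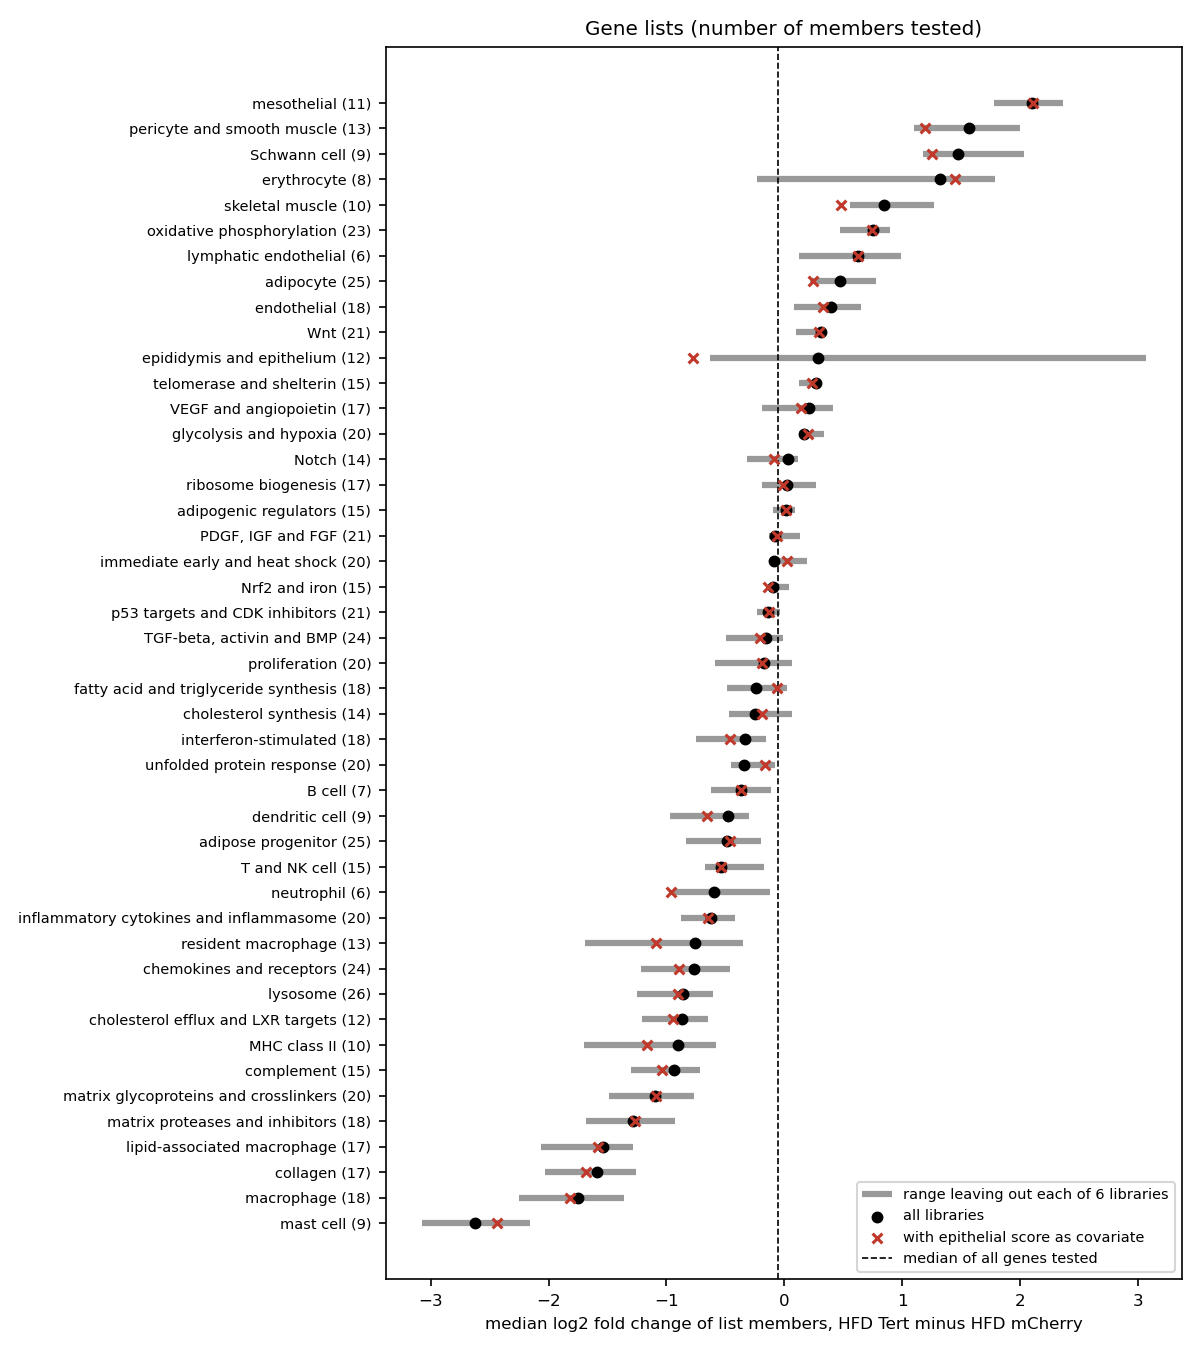
Median log2 fold change (HFD Tert minus HFD mCherry) of the tested members of 45 gene lists. Points show all libraries, grey bars the range with each of the 6 libraries left out, red crosses the fit with the epithelial covariate and the dashed line the median of all genes, -0.05. The mast cell (-2.62), macrophage (-1.75) and collagen (-1.59) lists lay lowest, and the mesothelial list (2.10) highest.

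Macrophage genes were lower in HFD Tert. All 18 list members had a negative log2 fold change, 13 at an unadjusted p under 0.05, 7 without overlap, 11 called by DESeq2 and 14 with the covariate. The median was -1.75. It was -2.25 with HFD Tert replicate 27 left out and -1.36 with replicate 26 left out, the extremes over the 6 libraries. It was -1.60 within the epithelium-rich and -1.14 within the epithelium-poor libraries. The summed level of the list was 2939, 7423 and 6080 CPM in the controls and 1401, 1119 and 3291 CPM in HFD Tert, so that Tert replicate 27 lay above control replicate 15.

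Cd68, a lysosomal membrane glycoprotein of macrophages, stood at 124, 433 and 441 CPM in the controls and at 19.5, 13.1 and 92.4 CPM in HFD Tert. The highest Tert library was below the lowest control, and the mean was 7.99-fold lower (log2 fold change -3.00, SE 0.76). C1qb and C1qc, chains of the complement component that macrophages secrete, had log2 fold changes of -2.08 (SE 0.49) and -1.88 (SE 0.50). C1qb was at 239, 677 and 560 CPM against 82.5, 61 and 206 CPM. Cd14, the co-receptor for lipopolysaccharide, had a smaller one of -1.04 (SE 0.30). The defining markers Csf1r, the receptor for the macrophage growth factor, and Adgre1, which encodes F4/80, were added after their values were seen. Csf1r stood at 124, 306 and 283 CPM against 38.8, 43.6 and 113 CPM, and Adgre1 at 53.8, 186 and 160 CPM against 10.4, 9.08 and 57.1 CPM, where Tert replicate 27 passed control replicate 15. Without Tert replicate 27 the log2 fold change of Adgre1 went from -2.38 to -3.77.

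Genes of lipid-associated macrophages, the lysosome-rich state seen around dying adipocytes, had a median of -1.53, with 15 of 17 members lower, 11 of them at an unadjusted p under 0.05. That median was -2.07 without HFD Tert replicate 27 and -1.285 without HFD mCherry replicate 17. It was -0.95 within the epithelium-rich and -1.28 within the epithelium-poor libraries. Lipa, the lysosomal acid lipase that frees cholesterol and fatty acids, stood at 124, 465 and 462 CPM in the controls and at 30.8, 29.7 and 108 CPM in HFD Tert, a log2 fold change of -2.64 (SE 0.66). Trem2, Gpnmb and Spp1, 3 hallmarks of this state added after their values were seen, had log2 fold changes of -2.58 (SE 0.95), -3.27 (SE 1.32) and -2.54 (SE 0.99). Gpnmb showed how far Tert replicate 27 stood from its group: 22.3, 25.8 and 308 CPM, against 288, 1577 and 1565 CPM in the controls. Without that library the values of Trem2 and Gpnmb were -4.16 and -5.57. The 2 members with a positive value were Cd9, a tetraspanin also made by progenitors, and Fabp5, a fatty acid binding protein, at 0.14 (SE 0.27) and 0.09 (SE 0.47).

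Resident macrophage genes lay in both directions: 10 of 13 were lower and 3 higher, with a median of -0.76, and 1 had an unadjusted p under 0.05, the folate receptor Folr2. The median was -1.69 with Tert replicate 27 left out and -0.35 with Tert replicate 26 left out. Folr2 stood at 57, 159 and 133 CPM against 15.7, 4.86 and 41 CPM, a log2 fold change of -2.50 (SE 0.78). Retnla, a resistin-like protein secreted by alternatively activated macrophages, lay in the opposite direction and overlapped, at 79.3, 155 and 84.6 CPM against 181, 131 and 838 CPM. Its log2 fold change of 1.85 (SE 0.92) was 0.55 without Tert replicate 27. The summed level of the list was 673, 1296 and 1188 CPM in the controls and 884, 808 and 1955 CPM in HFD Tert, and overlapped.

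Lysosomal genes were lower in 25 of 26 members, 15 at an unadjusted p under 0.05 and 15 called with the covariate, with a median of -0.86. That median was -1.25 without HFD Tert replicate 27 and -0.61 without HFD mCherry replicate 17. It was -0.46 within the epithelium-rich and -0.71 within the epithelium-poor libraries. This list shares 5 members with the lipid-associated list. Ctsd, an aspartic protease, was at 1060, 2630 and 2618 CPM in the controls and at 876, 829 and 868 CPM in HFD Tert. The Tert libraries hardly varied, and the log2 fold change was -1.29 (SE 0.35). The log2 difference of Ctsd was -0.31 within the epithelium-rich and -1.60 within the epithelium-poor libraries. Gusb, which degrades glycosaminoglycans, and the cysteine proteases Ctsb and Ctsl had log2 fold changes of -1.89 (SE 0.45), -1.53 (SE 0.45) and -1.42 (SE 0.39).

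Genes of cholesterol efflux had a median of -0.87, with 10 of 12 lower. Apoe, the lipoprotein that carries cholesterol out of cells, was even in both groups, at 2859, 3105 and 2823 CPM against 1599, 1398 and 1561 CPM. Its log2 fold change was -0.95 (SE 0.22) and stayed between -0.99 and -0.89 with single libraries left out. Pltp, a phospholipid transfer protein, and Soat1, which esterifies cholesterol, had log2 fold changes of -1.22 (SE 0.39) and -0.91 (SE 0.34).

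Most inflammatory mediators were lower in HFD Tert, a minority of them past the unadjusted threshold, where 9.75% of all genes were lower. With the epithelial covariate, 6 of 24 chemokines and receptors and 5 of 20 cytokine and inflammasome genes were called lower (4.33% of all genes). Of 24 chemokines and receptors 21 were lower, 4 of them at an unadjusted p under 0.05, with a median of -0.77. That median was -1.22 without HFD Tert replicate 27, -0.46 without HFD mCherry replicate 17, and -0.37 within the rich and -0.24 within the poor libraries. Cxcl5, a neutrophil attractant, and Ccl11, eotaxin, had log2 fold changes of -2.71 (SE 0.94) and -1.61 (SE 0.54). Of 20 cytokine and inflammasome genes 15 were lower, 5 at an unadjusted p under 0.05, with a median of -0.63 (-0.42 without HFD mCherry replicate 17). Lif, a cytokine of the interleukin-6 family, was at 142, 324 and 415 CPM against 130, 105 and 141 CPM. Its highest Tert library lay just under its lowest control, at a log2 fold change of -1.23 (SE 0.34). The well-known obesity cytokines, added after their values were seen, overlapped between groups: Il6 had a log2 fold change of 0.02 (SE 0.52), Tnf of -0.82 (SE 0.60), Il1b of -0.71 (SE 0.33) and Ccl2 of -0.64 (SE 0.54).

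Antigen presentation and complement genes were mostly lower, with different values within the library sets. Of 10 class II genes 9 were lower (median -0.91), 2 at an unadjusted p under 0.05. Their median was -1.70 without HFD Tert replicate 27 and -0.58 without HFD Tert replicate 26, and it was -0.99 within the epithelium-rich and -0.23 within the epithelium-poor libraries. The complement list had 12 of 15 lower, 7 at an unadjusted p under 0.05, and 1 higher at that level, Cfd. C4b (chr17:34728380-34743882), complement component 4, stood at 302, 1026 and 1524 CPM against 99.1, 114 and 162 CPM, a 7.61-fold lower mean with a log2 fold change of -2.93 (SE 0.57). The complement median of -0.94 was -0.12 within the epithelium-rich and -0.99 within the epithelium-poor libraries.

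Mast cell genes, led by granule proteases, were lower in all 9 members tested of 10, 7 at an unadjusted p under 0.05 and 0 called with the covariate. The median was -2.62 in all 6 libraries, -0.38 within the epithelium-rich and -3.43 within the epithelium-poor libraries. Tpsb2, a tryptase, stood at 12.6, 82.8 and 62.8 CPM against 9.28, 10 and 5.99 CPM, with control replicate 15 close to the Tert libraries. Cpa3, carboxypeptidase A of the granule, was at 3.09, 13.5 and 12.7 CPM against 1.46, 2.19 and 0.999 CPM. Their log2 fold changes were -2.64 (SE 0.64) and -2.65 (SE 0.92).

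Of the other leukocyte lists, T and NK cell genes had a median of -0.53, dendritic cell genes -0.48, B cell genes -0.37 and neutrophil genes -0.60. At an unadjusted p under 0.05, 2 of 15 T and NK cell genes, 2 of 9 dendritic cell genes and 1 of 6 neutrophil genes tested were lower. At that level 1 of 7 B cell genes tested was higher. Single libraries moved these medians: to -0.18 for T and NK cells without HFD Tert replicate 25, to -0.97 for dendritic cells without HFD Tert replicate 27, to -0.11 for B cells without HFD Tert replicate 26 and to -0.12 for neutrophils without HFD Tert replicate 27. In control replicate 15 the T and NK sum of 206 CPM included the 174 CPM of Klrb1c.

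**Figure D5:**
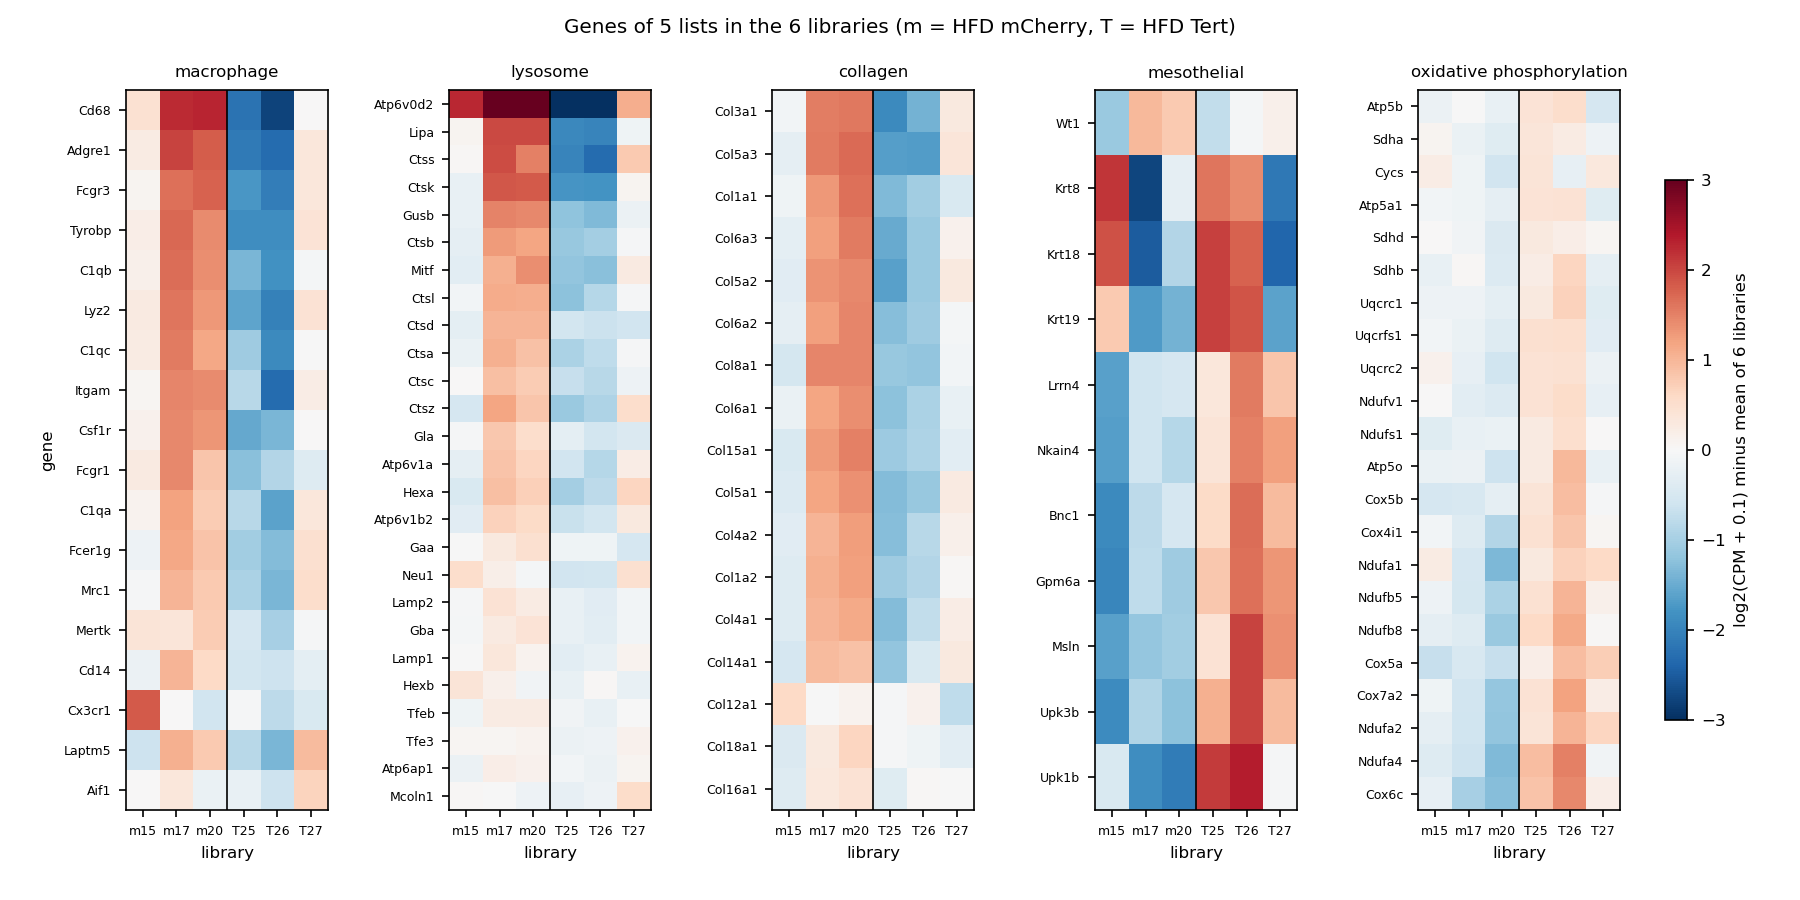
Genes of 5 lists (rows) in the 6 libraries (columns, m for HFD mCherry and T for HFD Tert), coloured by log2(CPM + 0.1) minus its mean over the 6. Most macrophage, lysosome and collagen genes are highest in m17 and m20 and lowest in T25 and T26, with m15 and T27 between, and most oxidative phosphorylation genes are highest in T25 or T26.

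Collagen genes were lower in HFD Tert in all 17 members, 13 at an unadjusted p under 0.05, 4 called by DESeq2 and 13 with the covariate, but only 2 without overlap. The median was -1.59 (range -2.03 to -1.26 with single libraries left out), -0.70 within the epithelium-rich and -1.11 within the epithelium-poor libraries. The summed level was 10858, 30639 and 34392 CPM in the controls and 5181, 6522 and 13634 CPM in HFD Tert. Col1a1, the main fibrillar collagen chain, stood at 1348, 3601 and 4652 CPM against 587, 713 and 1064 CPM, a log2 fold change of -2.02 (SE 0.52). Col6a1 and Col6a2, chains of the pericellular collagen of fat, had log2 fold changes of -1.68 (SE 0.45) and -1.67 (SE 0.50). Col15a1, a basement membrane collagen of progenitors, had one of -1.74 (SE 0.44).

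Of 20 matrix glycoproteins and crosslinking enzymes tested, 16 were lower (9 at an unadjusted p under 0.05, median -1.10), and of 18 matrix proteases and inhibitors, 15 (8 at that level, median -1.29). Within the epithelium-rich libraries these medians were -0.21 and -0.26. Mmp2, gelatinase A of fibroblasts, was at 216, 892 and 975 CPM against 114, 120 and 179 CPM. Even control replicate 15 was above every Tert library, and the log2 fold change was -2.33 (SE 0.47). Mmp19, Mmp11 and the membrane protease Adam12 had log2 fold changes of -2.18 (SE 0.54), -2.42 (SE 0.65) and -2.60 (SE 0.73). Fn1, fibronectin, and Lum, the collagen-binding lumican, had ones of -1.96 (SE 0.65) and -1.99 (SE 0.64).

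Progenitor markers lay in both directions. Of 25, 17 were lower, 4 of them at an unadjusted p under 0.05, and the median was -0.49 (0.04 within the epithelium-rich and -0.40 within the epithelium-poor libraries). It was -0.84 without HFD mCherry replicate 15 and -0.20 without HFD mCherry replicate 17. Those 4 were Pdgfra, Lum, Col15a1 and Clec11a, a secreted growth factor at 36.3, 56.3 and 53.8 CPM against 15.8, 28.1 and 23.7 CPM. Dpp4 and Pi16, markers of the most immature progenitors added after their values were seen, had log2 fold changes of 0.07 (SE 0.27) and -0.84 (SE 0.47), and Pdgfrb, the sister receptor of Pdgfra, had one of -0.73 (SE 0.46).

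Growth factor lists held both directions. In the TGF-beta, activin and BMP list (16 of 24 lower, median -0.16, or -0.49 without HFD mCherry replicate 15), Inhba, the activin A subunit, stood at 19.1, 81.4 and 108 CPM against 9.16, 3.79 and 15.6 CPM. Its log2 fold change was -2.87 (SE 0.77). Bmp4, which commits progenitors to the adipocyte line, lay in the opposite direction and was tight in both groups, at 16.6, 19.3 and 19.8 CPM against 42.7, 47.6 and 53.4 CPM, a log2 fold change of 1.37 (SE 0.36). Tgfbr1, a TGF-beta receptor, and Ltbp2, a latent TGF-beta binding protein, had log2 fold changes of -0.88 (SE 0.24) and -1.07 (SE 0.27). In the Wnt list (12 of 21 higher, median 0.31, or 0.10 without HFD Tert replicate 27), the secreted inhibitors Sfrp5 and Dkk2 had log2 fold changes of 2.29 (SE 0.64) and 1.81 (SE 0.57), and the receptor Fzd1 one of -1.48 (SE 0.38).

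Mesothelial genes, which mark the lining of the visceral cavities, were higher in HFD Tert in 10 of 11 members tested of 12, 7 at an unadjusted p under 0.05 and the same number without overlap, 6 called by DESeq2 and 5 with the covariate. The median was 2.10 (range 1.78 to 2.36 with single libraries left out), 2.60 within the epithelium-rich and 1.60 within the epithelium-poor libraries. Msln, mesothelin, stood at 24.1, 33.5 and 36.4 CPM in the controls and at 101, 304 and 194 CPM in HFD Tert. Upk3b, a mesothelial plaque protein, was at 35.5, 69.7 and 55.8 CPM against 273, 533 and 256 CPM. In both, every Tert library was above every control, and the log2 fold changes were 2.67 (SE 0.62) and 2.72 (SE 0.72). Nkain4, another mesothelial membrane protein, had one of 2.10 (SE 0.52). The exception was Wt1, a transcription factor of mesothelium and visceral progenitors, at -0.62 (SE 0.60). The summed mesothelial level, which includes 3 keratins that epithelium also makes, was 1366, 411 and 507 CPM against 2171, 2714 and 974 CPM and overlapped.

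Smooth muscle genes were far higher in HFD Tert replicates 25 and 26. The pericyte and smooth muscle list summed to 2644, 3547 and 1930 CPM in the controls and 17344, 24036 and 3235 CPM in HFD Tert. Of 13 members 10 were higher, 8 at an unadjusted p under 0.05, with a median of 1.56 that was 2.20 within the epithelium-rich and -0.10 within the epithelium-poor libraries. Acta2, smooth muscle actin, stood at 420, 404 and 169 CPM against 2336, 3826 and 528 CPM, and Tagln, transgelin, at 650, 915 and 497 CPM against 4863, 6262 and 1341 CPM. Their log2 fold changes were 2.75 (SE 0.80) and 2.60 (SE 0.72). The exons of Tagln overlap those of Pcsk7. Cspg4, a proteoglycan of pericytes, had a log2 fold change of 0.98 (SE 0.27), and the pericyte gene Rgs5, added after its values were seen, had one of -0.50 (SE 0.62).

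Schwann cell genes had a median of 1.47 (8 of 9 higher, 2 at an unadjusted p under 0.05), which was -0.50 within the epithelium-poor libraries. S100b, a calcium-binding protein of glia, was at 3.81, 3.55 and 3.05 CPM against 9.1, 10.8 and 5.05 CPM. Endothelial genes had a median of 0.40, with 17 of 18 higher, 3 at an unadjusted p under 0.05 and 1 called with the covariate. That median was 0.08 without HFD Tert replicate 27 and 0.65 without HFD Tert replicate 25. Emcn, a sialomucin of capillaries and veins, stood at 34.3, 67.3 and 52.1 CPM against 102, 129 and 216 CPM, and Vwf, von Willebrand factor, at 79.7, 207 and 296 CPM against 387, 426 and 555 CPM. Neither overlapped, and the log2 fold changes were 1.53 (SE 0.51) and 1.23 (SE 0.51). Cdh5, VE-cadherin, added after its values were seen, overlapped, at 0.11 (SE 0.37). Erythrocyte genes had a median of 1.32 that became -0.24 without HFD Tert replicate 26. Skeletal muscle genes had a median of 0.84 (0.56 without HFD Tert replicate 27 and 1.27 without HFD mCherry replicate 20), with 0 of 10 tested higher at an unadjusted p under 0.05 and 1 lower.

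Adipocyte genes were split. Of 25, 15 were higher, 8 at an unadjusted p under 0.05, and 10 were lower, 3 at that level, with a median of 0.47 (0.20 within the rich and 0.16 within the poor libraries). It was 0.22 without HFD Tert replicate 27 and 0.78 without HFD Tert replicate 25. Besides Cfd and Car3, Retn, the adipocyte hormone resistin, stood at 0, 0.361 and 0.0597 CPM against 1.34, 3.95 and 4.05 CPM, and Lipe, hormone-sensitive lipase, at 21.9, 29.6 and 25.3 CPM against 37.2, 43.4 and 62.4 CPM. The log2 fold changes were 4.42 (SE 1.05) and 0.90 (SE 0.23). Exons of Lipe overlap those of 4732471J01Rik. Defining adipocyte markers, added after their values were seen, did not share this size: Adipoq, adiponectin, had a log2 fold change of 1.90 (SE 0.73; 1.20 without Tert replicate 26), Plin1, the lipid droplet coat, of -0.44 (SE 0.79), and Pparg, the master regulator, of 0.02 (SE 0.52). Cebpa was lower (-0.94, SE 0.35) and Cebpd, an early adipogenic factor, higher (0.93, SE 0.34), both without overlap. Among lipogenic enzymes (12 of 18 lower, median -0.24), Acly, which makes cytosolic acetyl-CoA, was at 455, 185 and 174 CPM against 149, 129 and 101 CPM. Me1, malic enzyme, was at 21.7, 28.2 and 22.2 CPM against 75, 81.8 and 42 CPM, and the log2 fold changes of the pair were -1.10 (SE 0.37) and 1.46 (SE 0.38). Without HFD mCherry replicate 15 the median of the lipogenic list was 0.02 and the log2 fold change of Acly was -0.51.

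Respiratory chain genes were higher in HFD Tert in all 23 members, 11 at an unadjusted p under 0.05 and 13 without overlap, with 3 called by DESeq2 and 3 with the covariate. The median of 0.75 was 0.47 with HFD Tert replicate 26 left out, 0.89 with HFD Tert replicate 27 left out, and 0.71 within the rich and 0.34 within the poor libraries. Cox5a, a subunit of cytochrome c oxidase, stood at 20.7, 23.9 and 20.6 CPM against 38, 63.6 and 55.4 CPM, a log2 fold change of 1.27 (SE 0.34). Ndufb5, a subunit of complex I, had one of 1.09 (SE 0.33). Glycolysis and hypoxia genes had a median of 0.17 (0.33 without HFD Tert replicate 27) with opposite leading members. Hk2, the inducible hexokinase, was at 241, 332 and 316 CPM against 90.7, 58.4 and 147 CPM (log2 fold change -1.58, SE 0.32). Egln3, a prolyl hydroxylase that HIF induces, was at 19.9, 12.7 and 10 CPM against 53.3, 54.9 and 27.5 CPM (1.67, SE 0.37).

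Genes of the unfolded protein response, chaperones among them, were lower in 16 of 20 members, 6 at an unadjusted p under 0.05. Without overlap, 6 were lower and 2 higher. The median of -0.34 became -0.08 without control replicate 15 and was -0.63 within the rich and 0.04 within the poor libraries. Besides Hyou1, Calr, the calcium-binding chaperone calreticulin, stood at 1667, 1152 and 1237 CPM against 663, 783 and 668 CPM, and Hspa5, the master chaperone BiP, at 3690, 4371 and 5000 CPM against 2407, 2095 and 2970 CPM. Neither overlapped, and the log2 fold changes were -0.94 (SE 0.23) and -0.81 (SE 0.25).

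Genes nearest to the known roles of p21 and telomerase gave few values past the unadjusted threshold. Of 21 p53 targets and cyclin-dependent kinase inhibitors, 1 had an unadjusted p under 0.05 (Sesn2, a stress-induced sestrin, 34, 36.7 and 49.6 CPM against 20.2, 17.3 and 19.9 CPM), and the median was -0.13 (-0.23 without HFD Tert replicate 27, -0.04 without HFD Tert replicate 26). Of 15 telomerase and shelterin genes tested besides Tert, 0 had an unadjusted p under 0.05 in edgeR, and 0 were called by DESeq2 or with the covariate. Without overlap, 4 were higher, among them Gar1, and 0 lower, against 9.99% and 11.1% of all genes. The median was 0.27 (0.13 without HFD Tert replicate 26), with 12 of 15 higher. Gar1, a protein of the telomerase RNA particle, stood at 21.9, 32.8 and 28.6 CPM against 34.9, 34.5 and 54.9 CPM. Proliferation genes had a median of -0.17 (2 of 20 lower at an unadjusted p under 0.05, 0 higher). Interferon-stimulated genes had one of -0.33 (1 lower and 1 higher of 18 at that level). The proliferation median was 0.06 without HFD mCherry replicate 17 and -0.59 without HFD Tert replicate 27, and the interferon one was -0.75 without HFD Tert replicate 27 and -0.16 without HFD mCherry replicate 17.

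The libraries with TertCi carry the inactive form of Tert at the same locus. Between HFD Tert and HFD TertCi, edgeR called 0 genes (0%), with 227 (1.36%) at an unadjusted p under 0.05, DESeq2 called 9 (0.0539%), and limma-voom and the covariate fit called 0. Of the 39 genes named by size of change or smallest p, 28 differed by a log2 of less than 1 between these groups. An unadjusted edgeR p under 0.05 was reached by 6 of the 39: Prss56, Syt8, Ckmt1, Ptprr, Upk1b and Hyou1. The 39 were chosen by their values in the same HFD Tert libraries, which favours small p here too. These counts are therefore no independent support for a difference from HFD TertCi or for its absence. The share of all genes that differed by a log2 of less than 1 is not given here. The genes above are given here with their group means, since comparisons among these groups share libraries. 4930404N11Rik averaged 51.4 ± 13.2 CPM (SD, n = 3) in HFD mCherry, 10.2 ± 1.44 in HFD Tert, 9.07 ± 2.6 in HFD TertCi and 8.99 ± 1.1 in SD mCherry. Pdgfra averaged 220, 75.1, 61.6 and 108 CPM in the same order, and Slc27a1 102, 22.8, 30.1 and 83.8 CPM. The SD mCherry mean of 4930404N11Rik lay near the Tert mean. For Slc27a1 the SD mCherry libraries were spread, at 102, 117 and 32.6 CPM (SD 45), so that 2 lay near the HFD mCherry and 1 near the Tert and TertCi levels. Car3 averaged 4.95, 44.3, 22.2 and 36.7 CPM, and Cfd 0.408, 7.65, 2.19 and 15 CPM. For Cfd the difference between HFD Tert and HFD TertCi was a log2 fold change of 1.81 (SE 0.46, edgeR adjusted p = 1), and the TertCi libraries, at 1.89, 2.77 and 1.91 CPM, did not overlap with either of the other high-fat diet groups. For Hyou1 it was -0.40 (SE 0.16), with 241, 213 and 208 CPM in HFD TertCi. Cd68 averaged 333, 41.7, 41.1 and 28.9 CPM, and its difference between HFD Tert and HFD TertCi was 0.02 (SE 0.71). Col1a1 averaged 3201, 788, 715 and 442 CPM in the same order of groups. Tagln averaged 687, 4155, 3116 and 3243 CPM, and Msln 31.35, 199.7, 148.8 and 42.28 CPM. Tert itself stood at 9.54, 14.7 and 15.2 CPM in HFD TertCi.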

How the data were processed

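For each library the authors deposited whole-number read counts of 24422 named features (0 lines without a name), per the file headers. Poly-T beads selected the RNA and random hexamers primed the cDNA, as the labels' protocols state. The submitters' processing notes name featureCounts 1.6.4, Subread, SAMtools and mm10; the aligner and the use of strand are not given in the sources used here. Reads shared by near-identical or overlapping genes may therefore be split or lost. Overlapping exons are named beside some genes only. Other named genes with such an overlap include Ckmt1 (Strc), Pcsk1n (Eras), Gpc1 (Ankmy1), Pltp (Ctsa), Ctsb (Fdft1) and Mmp11 (Chchd10). Symbols matched RefSeq GRCm38.p6 for 23204 features.

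The counts were used as deposited, with depths of 16430330 to 19486965. Genes were kept by filterByExpr with 4 groups (16713 genes) and scaled by TMM (0.854 to 1.15). A robust quasi-likelihood model was fitted to all 12 libraries in edgeR 4.0.16 (R 4.3.3), so that the 4 groups share 1 estimate of the spread (common biological coefficient of variation 0.536, 8 residual degrees of freedom). The contrast was HFD Tert minus HFD mCherry, 2-sided, with Benjamini-Hochberg adjustment over all genes tested and a threshold of 0.05. SE is that of the fitted log2 fold change. A single-value exact permutation test of 3 against 3 cannot go below p = 0.1, and no p-value from it is reported here. Alternatives were DESeq2 1.42.0, limma-voom (limma 3.58.1), other scaling and filters, other sets of libraries, an epithelial covariate (mean log2 CPM of 12 genes) and leaving out each library. Spearman correlations between libraries ran from 0.884 to 0.984 within and 0.864 to 0.967 between the groups, and no replicates agreed within sampling noise (chi-square at least 20.5 per degree of freedom). Simulated counts with 200 changed genes gave 66 recovered at a log2 of 2 (16483 tested, 2 false) and 179 at 4 (16497 tested, 3 false), with 0 in the wrong direction.

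Named genes were the 10 highest and 10 lowest log2 fold changes and the 10 smallest p in each direction, among genes with an unadjusted p under 0.05, a mean of at least 5 CPM over the 6 libraries and no overlap between groups, together 39 genes, and up to 4 members of each list with the smallest p, with Tert, mCherry_Tert and Cdkn1a. Others are said to be added. The comparison and the 45 lists were chosen with earlier results of these data known. Some genes that met the rule are not reported here.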

Additional observations from a re-analysis of the deposited data

How the results depend on the processing

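The count of 0 genes called by edgeR stayed at 0 with DESeq2's size factors, library size alone, no filter, limma-voom, the 6 libraries alone and non-robust dispersions. It was 2 with a mean of at least 5 CPM (4930404N11Rik and Cfd), 2 with the 9 high-fat diet libraries (AU021092 and Slc27a1), 847 with DESeq2 and 996 with the epithelial covariate. Leaving out single libraries gave 0 to 51 calls: 51 without HFD mCherry replicate 15 (49 lower, 2 higher), 1 without HFD Tert replicate 27 and 0 otherwise. HFD Tert against HFD TertCi gave 9 calls with DESeq2 and 0 otherwise. The cause of these differences was not tested.

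No paired analysis was possible because no replicate number in the labels occurs in both groups.

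Of 124 genes named with values, 117 never changed sign in 16 settings. All settings use the counts from which most of these genes were chosen, so this is no independent support. With single libraries left out, the log2 fold change ranged from -0.29 to 0.34 for Cdh5, -0.43 to 0.074 for Cdkn1a, -0.036 to 0.17 for Dpp4, -0.32 to 0.43 for Fabp5, -0.41 to 0.37 for Il6, -10.25 to 4.48 for Lcn5 and -0.40 to 0.29 for Pparg. With the covariate it was -0.015 for Il6 and -0.12 for Pparg, and with limma-voom -0.030 for Pparg. Values within the epithelium-rich and epithelium-poor libraries were an alternative chosen after seeing the data. Low genes such as Cfd, Retn and mCherry_Tert rest on few reads.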
